A study of Mus musculus with 18 samples.

Results

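The 35 genes described here encode the mitochondrial and peroxisomal machinery of fatty acid oxidation, and were followed in lipochondrocytes of the mouse ear and in adipocytes of inguinal fat. Lipochondrocytes are cartilage cells that hold a large lipid droplet. The genes were taken by symbol from the deposited expression table, which lists 46983 genes, and all 35 were found there. Values are FPKM, which counts fragments per kilobase of a gene, scaled to the fragments mapped in that library. Differences were tested on log2(FPKM + 1) for the 13815 genes that reached 1 FPKM in 3 or more of the 18 libraries, a filter that all 35 passed. Cpt1b and Abcd2 passed it through the adipocyte libraries only, so their difference from adipocytes was fixed by the filter.

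Lipochondrocytes came from ear cartilage at postnatal days 8, 10, 13, 21 and 33 (P8, P10, P13, P21 and P33), and the adipocytes from mice of the P33 stage, with 3 libraries in each of the 6 groups. All groups, the adipocytes included, are labelled Wnt1-Cre2;TdTomato on a C57BL/6 background, in which a Cre recombinase under Wnt1 control switches on the red reporter TdTomato in neural crest derivatives. Cartilage of P8, P10 and P13 was digested with 1% Collagenase II and cells with high TdTomato were taken by FACS (fluorescence-activated cell sorting). Lipochondrocytes of P21 and P33, like the adipocytes, were taken as the cells that floated after spinning at 400 g. The labels do not say whether the 3 libraries of a group were separate animals or pools, so p-values measure only the spread between these libraries, which may be technical.

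Beta-oxidation shortens an acyl-CoA by a cycle of dehydrogenation, hydration, another dehydrogenation and thiolysis. In mitochondria long-chain acyl groups first have to cross the inner membrane as carnitine esters, and the electrons leave through the electron transfer flavoprotein to the respiratory chain. Peroxisomes take very long, branched and dicarboxylic chains, shorten them, and pass the products on as carnitine esters. White adipocytes store triglyceride and are better known for releasing fatty acids than for burning them, whereas brown and beige adipocytes oxidise them for heat.

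Libraries held 12461965 to 27640142 total reads, of which 73.19% to 84.44% aligned. Of 7 chondrocyte markers, Col2a1, Acan, Sox9, Cytl1 and Snorc were abundant in all 15 lipochondrocyte libraries, Comp was at 1.04 FPKM or less until P13, and Matn1 was at 1.09 FPKM or less throughout and listed at 0 at P21 and P33. The 7 adipocyte markers together had 6.38 to 7.58 FPKM at P33 and 84982 to 90497 FPKM in adipocytes, and the 7 chondrocyte markers 19676 to 24470 FPKM at P33 and 1.38 to 2.13 FPKM in adipocytes. Mitochondrially encoded genes took 4.35% to 5.56% of all FPKM at P33 and 23.3% to 25.5% in adipocytes. In bulk RNA, fewer cells that express a gene and less of its RNA per cell cannot be told apart.

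P33 lipochondrocytes and adipocytes match in age and isolation, and this comparison asks how the oxidation genes stand in these lipid-filled cell types. All 35 genes were lower in P33 lipochondrocytes, where a call means an adjusted p below 0.05 in limma with Benjamini-Hochberg adjustment over all tested genes. Of all tested genes 44.5% were lower and 24% higher, and 0 of the 35 were higher. Without Cpt1b and Abcd2, the count is 33 of 33. The median difference of the 35 was -2.64 on the log2 scale, beside -0.28 over all tested genes. When libraries were rescaled by median-of-ratios, which sets the median gene to 0.00, the median of the 35 was -2.24 and all 35 were still called lower, beside 34.1% lower and 31.4% higher of all genes. Each P33 library lay below each adipocyte library for all 35 genes, as it did for 46.1% of tested genes. Over all 15 lipochondrocyte libraries the same held for the 35, and for 37.5% of tested genes.

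Markers of several other cell types were also lower at P33 than in adipocytes. Summed FPKM of 6 endothelial markers was 5.96 to 8.35 at P33 and 693 to 743 in adipocytes, with 6 of 6 called lower at P33. For 6 macrophage markers the sums were 17.95 to 36.52 and 519 to 568 FPKM in adipocytes, again with 6 of 6 lower at P33. The 6 brown or beige fat markers summed to 95.8 to 103 FPKM at P33 and 428 to 454 FPKM in adipocytes, with 6 of 6 lower, and Ucp1, the uncoupling protein that defines these cells, was listed at 0 in every lipochondrocyte library and at 36.31 to 36.98 FPKM in adipocytes. Erythroid markers (5 genes, 5 lower) summed to 43.6 to 147 FPKM at P33 and 962 to 1031 FPKM in adipocytes. Ucp1 passed the filter through adipocytes only, so its lower call was fixed by the filter. Cdh5, Esam, Gpihbp1, Kdr, Adgre1, Csf1r, Cd163, Mrc1, Elovl3, Ppargc1a and Alas2 averaged below 1 FPKM at each stage from P8 to P21. The counts of lower markers in these lists may thus partly follow from the filter. Skeletal muscle markers ran the other way, with 26.3 to 204 FPKM at P33 and 29.95 to 33.7 FPKM in adipocytes and 6 of 7 tested called higher, as did fibroblast and perichondrium markers, with 4717 to 8602 FPKM at P33 and 269 to 290.2 FPKM in adipocytes and 3 of 6 called higher and 1 lower. The part of these cells in the differences was not tested.

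**Figure D1:**
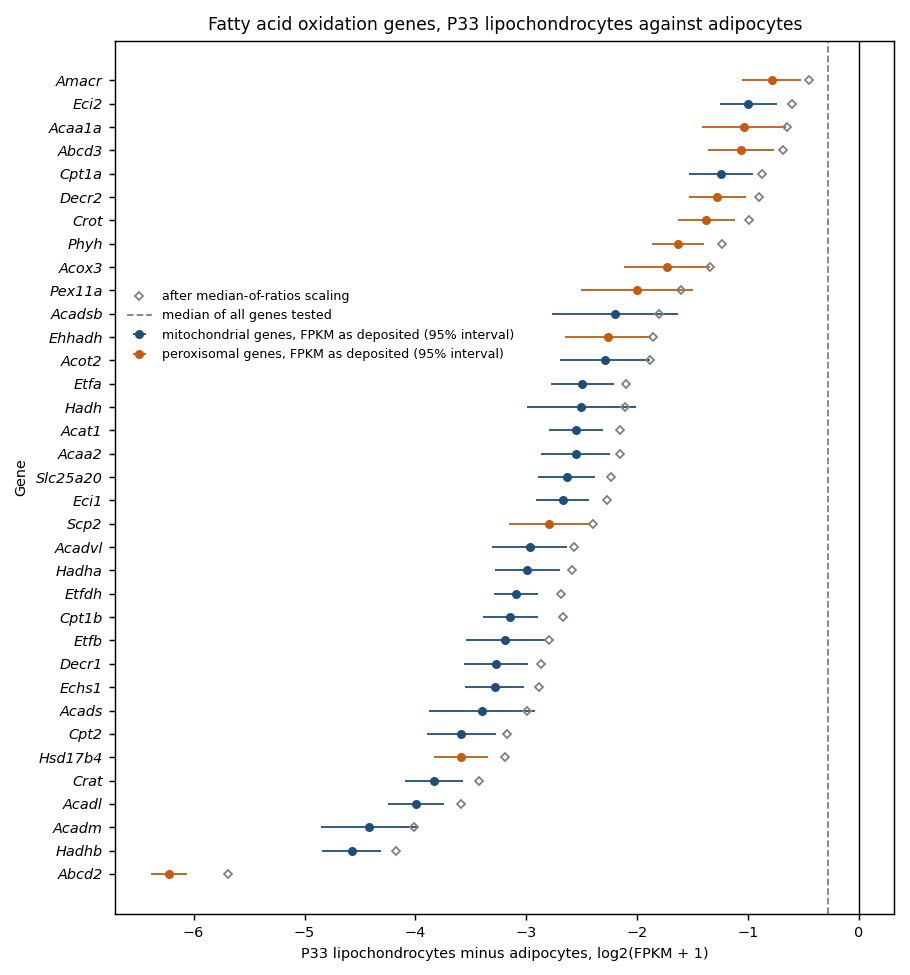
Difference in log2(FPKM + 1) of P33 lipochondrocytes minus adipocytes for the 35 genes, ordered by size. Filled points are the FPKM as deposited with 95% intervals, blue for mitochondrial and orange for peroxisomal genes, open diamonds the values after median-of-ratios scaling, and the dashed line the median of all genes tested. Differences run from -6.22 for Abcd2 to -0.79 for Amacr, and all intervals lie below 0.

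The carnitine shuttle was low at all lipochondrocyte stages, and its muscle-type entry enzyme was near 0. Cpt1b, the muscle isoform of carnitine palmitoyltransferase 1, had 0.20, 0.14 and 0 FPKM in P33 lipochondrocytes, against 9.29, 8.89 and 8.29 FPKM in adipocytes. No lipochondrocyte library of any stage exceeded 0.33 FPKM for Cpt1b. Cpt1a, the liver-type isoform and the malonyl-CoA-sensitive gate of the pathway, had 2.91, 2.57 and 4.41 FPKM at P33, against 9.20, 8.75 and 9.07 FPKM in adipocytes. Its difference of -1.24 ± 0.13 (SE), adjusted p = 8.29e-07, was the smallest of the shuttle genes, and the P33 mean was 36.6% of the adipocyte mean. Among the CPT1 isoforms, Cpt1a was the higher one at every lipochondrocyte stage, while in adipocytes both stood at about the same FPKM, a per-length measure. Crat, which forms acetylcarnitine, had 10.01, 11.4 and 15.6 FPKM at P33, against 196, 175 and 187 FPKM in adipocytes, a difference of -3.83 ± 0.12 (SE), adjusted p = 4.35e-13. Cpt2, which returns the acyl group to CoA inside the inner membrane, averaged 7.80 ± 2.06 FPKM at P33 and 103 ± 1.51 FPKM in adipocytes (SD, n = 3 each). Slc25a20, the translocase that carries acylcarnitines through the inner membrane, averaged 7.92 ± 0.585 FPKM at P33 and 54.4 ± 1.07 FPKM in adipocytes (SD, n = 3 each). Apart from Cpt1b, which passed the filter through adipocytes only, the shuttle genes differed by -3.83 to -1.24 on the log2 scale.

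Acyl-CoA dehydrogenases start the cycle and differ by the chain length they accept. Acadm, the medium-chain enzyme (Ensembl gene ENSMUSG00000062908, GRCm38 chromosome 3, 153922357 to 153944632, minus strand), had 13.4, 11.8 and 10.03 FPKM in P33 lipochondrocytes, against 275, 259 and 274 FPKM in adipocytes. The groups lay far apart, with a difference of -4.41 ± 0.20 (SE), adjusted p = 3.36e-11, and the P33 mean was 4.36% of the adipocyte mean. Acadl, the long-chain enzyme, had 8.61, 10.3 and 12.2 FPKM at P33, against 182, 175 and 179 FPKM in adipocytes, a difference of -3.99 ± 0.12 (SE), adjusted p = 1.66e-13. Acads, the short-chain enzyme, differed by -3.40 and Acadvl, the very-long-chain enzyme, by -2.97, with P33 means at 8.73% and 12.5% of the adipocyte mean. Acadsb, the short branched-chain enzyme of isoleucine breakdown, differed least, by -2.20 ± 0.27 (SE), adjusted p = 2.75e-06. Its value is uncertain, because Fgfr2 overlaps it on the opposite strand, had a mean of 19.9 FPKM at P33 and 2.84 FPKM in adipocytes, and the strand setting of the counting is not given in the sources used here. In adipocytes Acadm was the most abundant of the 5 by FPKM, whereas Acadvl was the most abundant at every lipochondrocyte stage.

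Hadha and Hadhb encode the alpha and beta subunits of the mitochondrial trifunctional protein, which carries out the later steps for long chains. They lie head to head on chromosome 5: Hadha (ENSMUSG00000025745) at 30118304 to 30155162 on the minus strand and Hadhb (ENSMUSG00000059447) at 30155248 to 30184593 on the plus strand (GENCODE M21, GRCm38). Hadhb had 12.2, 16.3 and 16.8 FPKM in P33 lipochondrocytes, against 378, 377 and 383 FPKM in adipocytes, a difference of -4.58 ± 0.12 (SE), adjusted p = 5.59e-14. Hadha had 21.9, 26.6 and 26.5 FPKM at P33, against 207, 206 and 201 FPKM in adipocytes, a difference of -2.99 ± 0.14 (SE), adjusted p = 2.92e-11. Neither gene's groups overlapped, and Hadhb, the higher gene of the pair in adipocytes, was the lower of the pair in all 15 lipochondrocyte libraries. Within a library, the ratio of Hadha to Hadhb FPKM was 1.79, 1.63 and 1.58 at P33, against 0.547, 0.546 and 0.526 in adipocytes. Across the 15 lipochondrocyte libraries it ran from 1.15 to 2.03, and none fell within the adipocyte range of 0.526 to 0.547. A ratio within a library does not depend on how libraries are scaled to each other, but it carries any difference in how reads were assigned to each gene.

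The 85 bases between the annotated ends of this gene pair, chr5:30155163-30155247, are shown because they lie ahead of both genes, and the 250 bases before the RefSeq start of Acadm, chr3:153944644-153944893, because Acadm had the lowest P33 share of the adipocyte level among the dehydrogenases. Both are from RefSeq on GRCm38.p6, 5′ to 3′, the first on the plus strand (the direction of Hadhb) and the other on the minus strand (the direction of Acadm). The ends of the pair are those of GENCODE, and the letters come from the RefSeq window of Hadhb. The RefSeq window of Hadha did not hold the whole stretch. Capitals mark, on either strand, GGGCGG, the core of the GC box read by Sp1 family factors, between the pair, and AAGGTCA, a nuclear receptor half-site with its flank, at Acadm.
Hadha-Hadhb: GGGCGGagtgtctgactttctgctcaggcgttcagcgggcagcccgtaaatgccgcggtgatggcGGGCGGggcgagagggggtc
Acadm: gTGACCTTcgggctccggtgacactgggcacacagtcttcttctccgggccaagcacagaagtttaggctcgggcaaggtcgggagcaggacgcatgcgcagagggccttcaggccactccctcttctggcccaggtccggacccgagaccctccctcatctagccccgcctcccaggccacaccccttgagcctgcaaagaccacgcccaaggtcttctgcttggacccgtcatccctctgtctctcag
The stretch between Hadha and Hadhb held 2 matches to GGGCGG and the Acadm stretch 1 match to AAGGTCA. RefSeq windows, of 250 bases before and 50 after the start, were at hand for 27 of the 35 genes and for 27025 genes in all. The direct repeat of AGGNCA with 1 base N between the copies, read by PPAR and RXR pairs, was in 0 of the 27 windows and in 0.451% of all. TCAAGGTCA, the element of estrogen-related receptors, was also in 0 of the 27 and in 0.466% of all, while the shorter AAGGTCA it contains was in 1 (Acadm) and in 5.38% of all. GGGCGG was in 21 of 27 windows and in 38.2% of all. These shares of all are over every gene with a window, whether or not it passed the FPKM filter. The members were not compared with expressed genes alone. Matches were counted on both strands. A missing match says only that these letters are not in this window, and AAGGTCA and GGGCGG were added after the first searches.

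The remaining enzymes of the spiral were lower at P33 as well. Echs1, the short-chain enoyl-CoA hydratase, had 20.9, 27.4 and 20.4 FPKM in P33 lipochondrocytes, against 225, 224 and 242 FPKM in adipocytes, a difference of -3.29 ± 0.13 (SE), adjusted p = 3.23e-12. Hadh, the medium and short-chain 3-hydroxyacyl-CoA dehydrogenase, was the most abundant of the 35 by FPKM at P8 and P10, with means of 122 ± 27.1 and 114 ± 14.05 FPKM (SD, n = 3 each). At P33 Hadh had 62.7, 73.3 and 76.9 FPKM, against 387, 408 and 421 FPKM in adipocytes, a difference of -2.50 ± 0.23 (SE), adjusted p = 1.29e-07. Acaa2, the mitochondrial 3-ketoacyl-CoA thiolase, and Acat1, the acetoacetyl-CoA thiolase that also serves ketone and isoleucine breakdown, differed by -2.56 and -2.55. Their ratio of Acat1 to Acaa2 FPKM averaged 0.520 ± 0.0479 at P33 and 0.531 ± 0.0134 in adipocytes (SD, n = 3 each), with overlapping libraries. Acot2, a mitochondrial thioesterase that frees fatty acids from CoA, averaged 3.48 ± 0.868 FPKM at P33 and 20.6 ± 0.441 FPKM in adipocytes (SD, n = 3 each), but reads may have been split with its near-identical neighbour Acot1.

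Enzymes that prepare unsaturated chains for the spiral differed by unequal amounts. Eci2, an enoyl-CoA isomerase found in peroxisomes and mitochondria, had 34.02, 34.97 and 33.4 FPKM in P33 lipochondrocytes, against 67.5, 70.1 and 69.7 FPKM in adipocytes, a difference of -0.997 ± 0.12 (SE), adjusted p = 2.49e-06. Its mitochondrial relative Eci1 had 22.9, 26.5 and 27.4 FPKM at P33, against 173, 167 and 164 FPKM in adipocytes, a difference of -2.67 ± 0.11 (SE), adjusted p = 9.54e-12. Eci2 thus exceeded Eci1 in all lipochondrocyte libraries, with ratios of 1.22 to 2.10, and stood below it in all adipocyte libraries, with ratios of 0.390 to 0.424. Decr1, the mitochondrial 2,4-dienoyl-CoA reductase, differed by -3.27 ± 0.14 (SE), adjusted p = 8.84e-12. Electrons from the first step pass to Etfa and Etfb, the subunits of the electron transfer flavoprotein, and on through Etfdh to ubiquinone. Etfb had 61.6, 64.6 and 90.3 FPKM at P33, against 638, 649 and 685 FPKM in adipocytes, and Etfdh had 5.01, 5.77 and 4.58 FPKM at P33, against 51.7, 51.4 and 50.2 FPKM in adipocytes. The differences were -3.19 for Etfb, -3.09 for Etfdh and -2.49 for Etfa, with no overlap between the groups.

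Peroxisomal genes were lower at P33 by widely different amounts. Abcd2, an importer of very-long-chain acyl-CoAs, had 0.14, 0.16 and 0.11 FPKM in P33 lipochondrocytes, against 85.1, 84.00 and 82.4 FPKM in adipocytes, and its lipochondrocyte libraries ran from 0.06 to 0.30 FPKM over all stages. Its P33 mean was 0.163% of the adipocyte mean, a value fixed in part by the filter, which it passed through adipocytes only. Abcd3, its relative for branched and dicarboxylic substrates, had 11.3, 11.9 and 7.70 FPKM at P33, against 23.4, 22.7 and 20.9 FPKM in adipocytes, a difference of -1.06 ± 0.14 (SE), adjusted p = 7.21e-06. Abcd3 thus stood at 46.1% of the adipocyte mean at P33, while Abcd2 was near 0. Pex11a, a membrane protein of peroxisome division, had 6.62, 8.10 and 7.24 FPKM at P33, against 33.7, 31.5 and 31.6 FPKM in adipocytes, and differed by -2.002. Hsd17b4, the D-bifunctional enzyme and the main hydratase and dehydrogenase of peroxisomes, had 9.76, 12.3 and 10.8 FPKM at P33, against 146, 139 and 143 FPKM in adipocytes, a difference of -3.59 ± 0.11 (SE), adjusted p = 3.79e-13. It was the deepest among the 9 peroxisomal enzymes, which differed by -3.59 to -0.79 with a median of -1.63.

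At the other end stood Amacr, the racemase that prepares branched-chain acyl-CoAs, with 1.98, 3.12 and 2.60 FPKM at P33, against 4.94, 5.06 and 5.29 FPKM in adipocytes. Its difference was -0.79 ± 0.12 (SE), adjusted p = 4.57e-05, and the libraries did not overlap. Acaa1a, a peroxisomal thiolase, had 49.9, 58.5 and 88.9 FPKM at P33, against 134, 128 and 134 FPKM in adipocytes, a difference of -1.04 ± 0.18 (SE), adjusted p = 1.02e-04. That value is uncertain, since the near-identical Acaa1b averaged 0.357 ± 0.360 FPKM at P33 and 161 ± 7.15 FPKM in adipocytes (SD, n = 3 each), and Myd88 overlaps Acaa1a on the opposite strand. Crot, which makes the medium-chain carnitine esters that leave peroxisomes, Decr2, the peroxisomal dienoyl-CoA reductase, and Phyh, which starts the alpha-oxidation of phytanic acid, had P33 means at 34.96%, 37.5% and 31.8% of the adipocyte mean. Acox3, the branched-chain acyl-CoA oxidase, averaged 2.18 ± 0.239 FPKM at P33 and 9.70 ± 2.22 FPKM in adipocytes, and Ehhadh, the L-bifunctional enzyme, 1.52 ± 0.512 FPKM at P33 and 10.97 ± 0.285 FPKM in adipocytes (SD, n = 3 each). Scp2, a gene for a peroxisomal thiolase and for sterol carrier protein, had 192, 200.4 and 190.3 FPKM at P33, against 1336, 1334 and 1382 FPKM in adipocytes, a difference of -2.79 ± 0.17 (SE), adjusted p = 8.82e-10. It was the most abundant of the 35 by FPKM at P33 and in adipocytes alike, at 23.9% and 23.0% of their summed FPKM. Podn overlaps Scp2 on the same strand, with means of 3.98 to 8.29 FPKM over the groups. In all, 20 of the 35 genes overlap another annotated gene, and a fold of low genes on the log2(FPKM + 1) scale is understated.

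**Figure D2:**
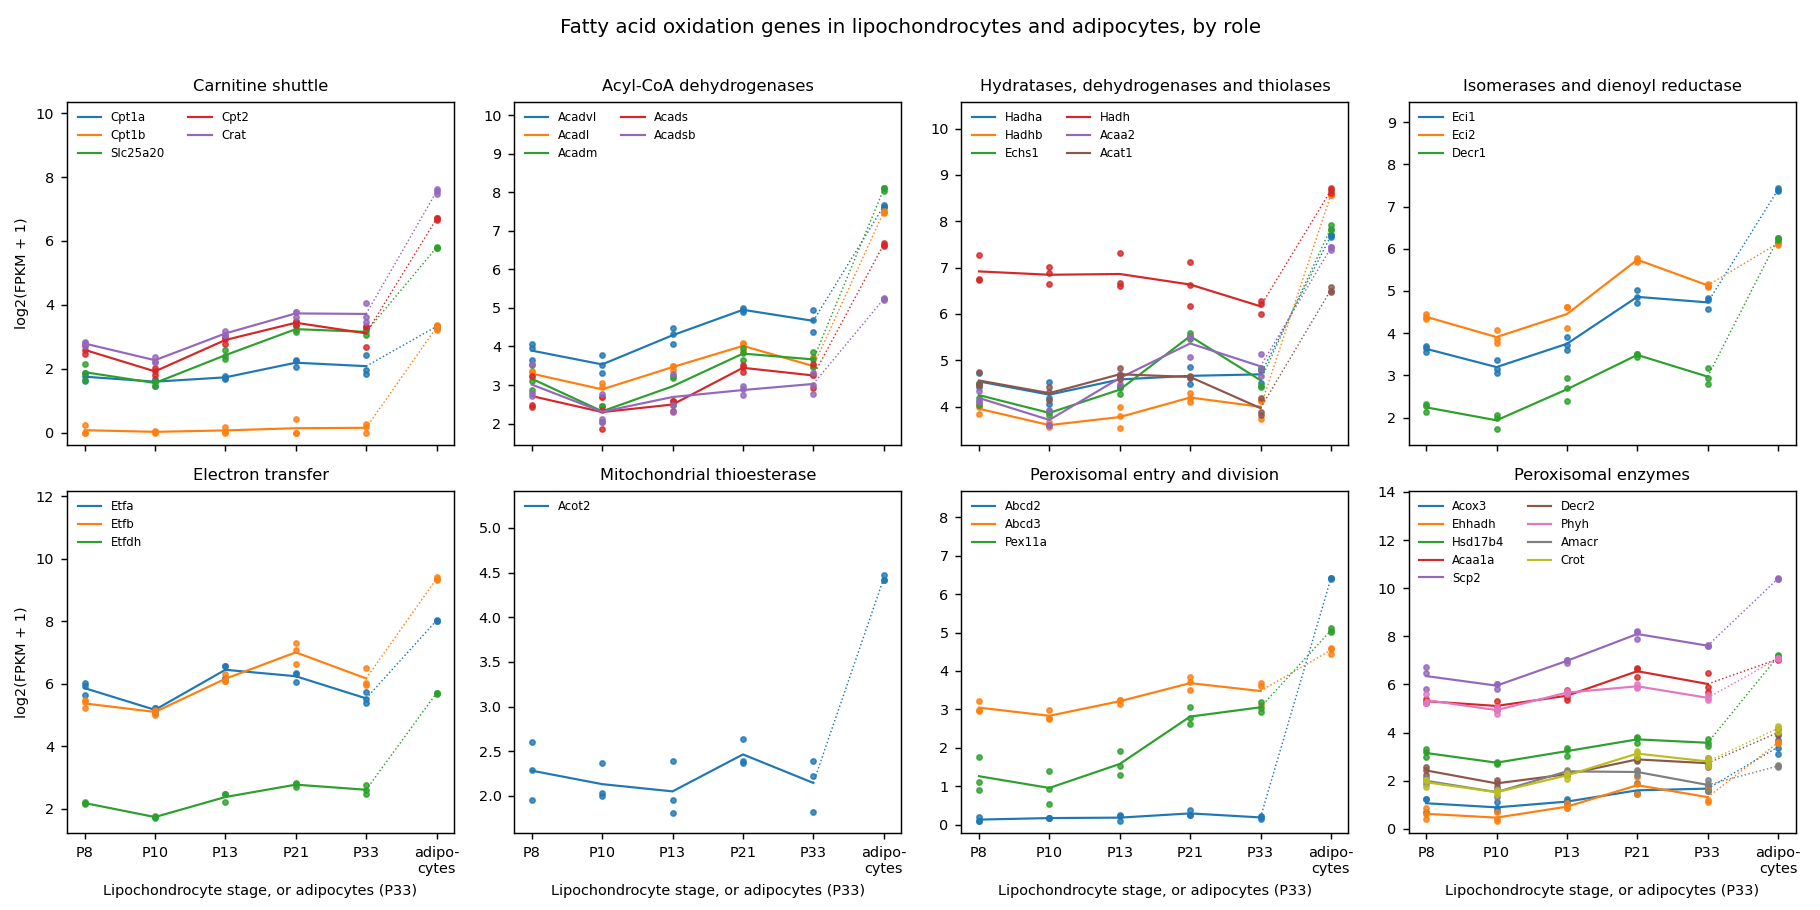
Level of each of the 35 genes as log2(FPKM + 1) in every library, in panels by role. Points are libraries (3 per group), solid lines join the means of the lipochondrocyte stages from P8 to P33, and dotted lines lead to the adipocytes at the right. All adipocyte points of a gene lie above all its lipochondrocyte points. In these FPKM as deposited, most genes have their lowest mean at P10 and their highest lipochondrocyte mean at P21.

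Against adipocytes, the median of the 35 stage means, as a percent of the adipocyte mean, was 7.06% at P8, 5.40% at P10, 9.45% at P13, 19.5% at P21 and 14.55% at P33. In the FPKM as deposited P10 was the lowest stage for 31 genes and P21 the highest for 25. The share of all tested genes with these extremes was not computed. As deposited, the median tested gene was also lower at P10 than at P8 (-0.19) and higher at P21 than at P13 (0.29). At P33, 11 of the 35 were below 10% of the adipocyte mean, and Amacr alone was above 50%. Amacr reached 82.9% at P13 and 81.2% at P21, the nearest of the 35 to the adipocyte level at those stages, although its P13 and P21 libraries still lay below those of adipocytes. Summed FPKM of the 35 was 608 ± 41.0 at P8, 472 ± 31.2 at P10, 747 ± 79.6 at P13, 1148 ± 40.0 at P21, 813 ± 66.4 at P33 and 5881 ± 83.1 in adipocytes (SD, n = 3 each). As a share of all FPKM this was 0.0465% to 0.105% in lipochondrocyte libraries and 0.546% to 0.556% in adipocyte libraries.

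The make-up of that sum also differed. Hadh was 20.0% of it at P8 and 24.3% at P10, and Scp2 was the most abundant gene from P13 on. Acyl-CoA dehydrogenases made 7.31% to 8.01% of the sum at P33 and 13.2% to 13.5% in adipocytes, and the carnitine shuttle 3.59% to 4.31% at P33 and 5.98% to 6.37% in adipocytes. Peroxisomal enzymes made 40.1% to 41.5% at P33 and 30.8% to 30.96% in adipocytes. None of these ranges overlapped. With 3 libraries against 3, an exact permutation test cannot give a p below 0.1, so shares and ratios are described without a test, and the 8 ratios computed were chosen after values were seen. The ratio of Abcd3 to Hsd17b4 was 1.16, 0.964 and 0.716 at P33, against 0.160, 0.163 and 0.146 in adipocytes, and 0.716 to 1.2003 over all lipochondrocyte libraries.

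**Figure D3:**
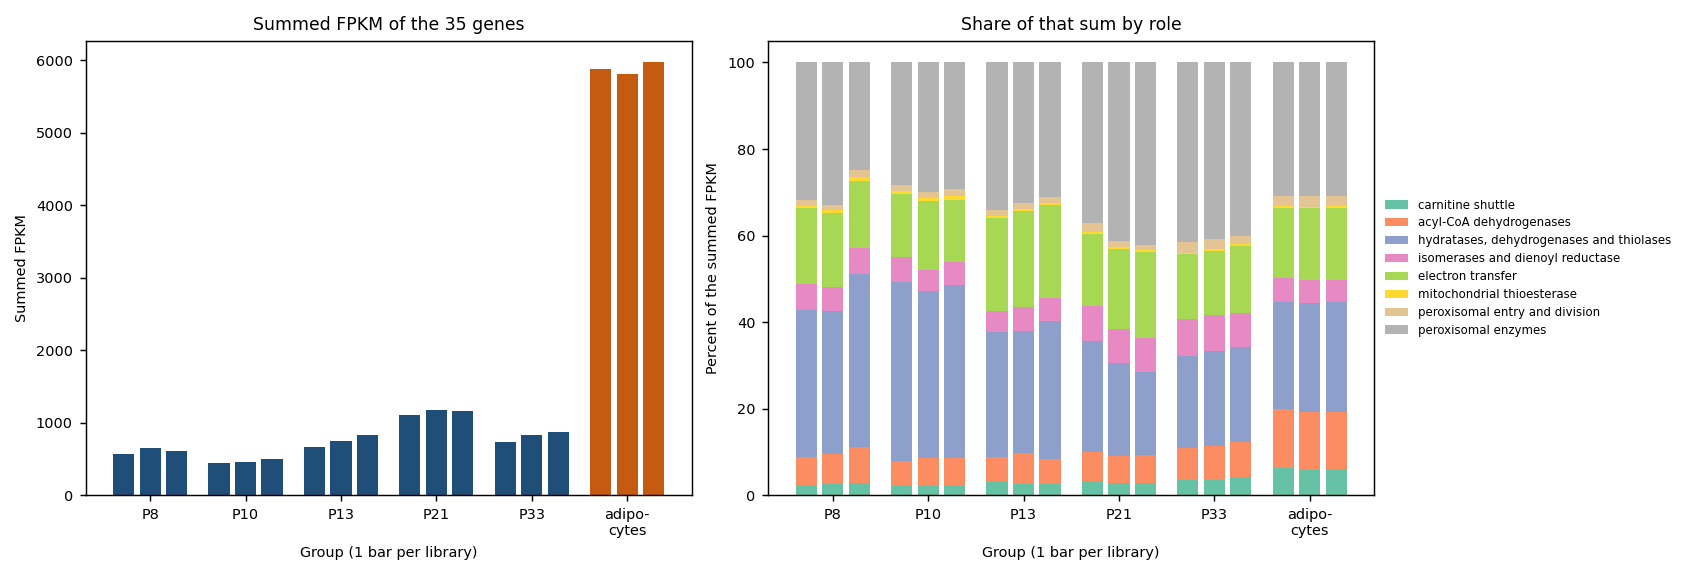
Left, summed FPKM of the 35 genes in each library (1 bar per library, blue for lipochondrocytes and orange for adipocytes). Right, the percent of that sum held by each role. Sums stay at or below 1181 FPKM in lipochondrocytes and reach 5802 to 5968 FPKM in adipocytes, and peroxisomal enzymes hold a larger share at P33 than in adipocytes.

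**Figure D4:**
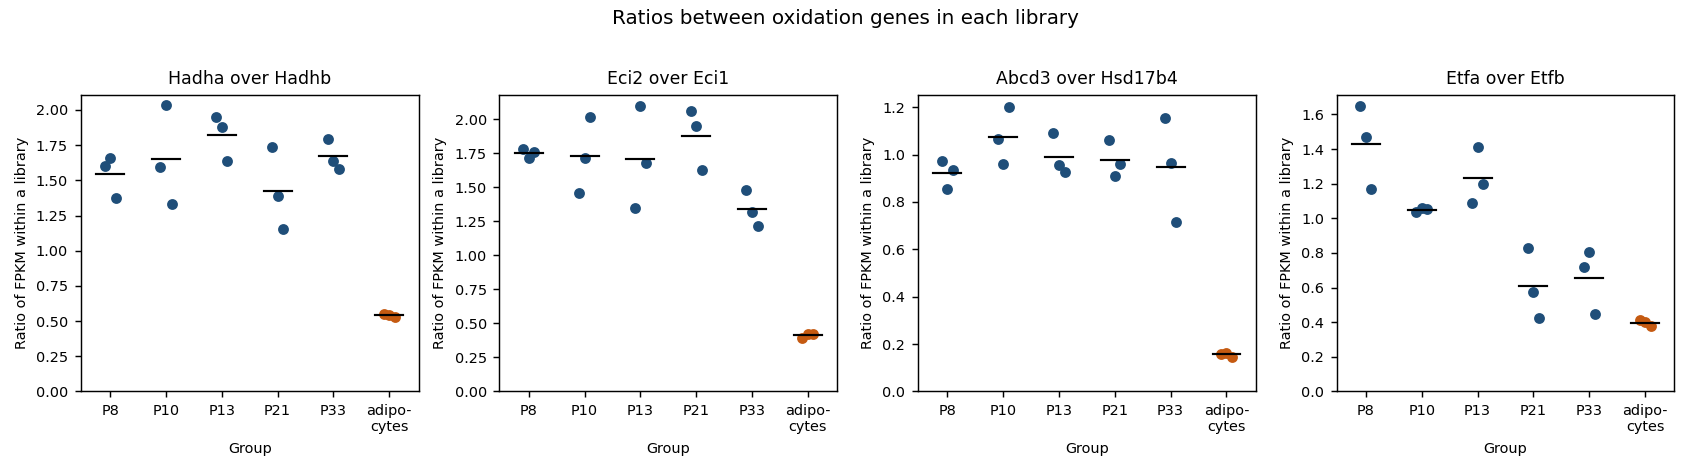
Ratio of FPKM within each library for 4 gene pairs, with points for libraries, short lines for group means, blue for lipochondrocytes and orange for adipocytes. Hadha over Hadhb, Eci2 over Eci1 and Abcd3 over Hsd17b4 separate every lipochondrocyte library from every adipocyte library, and Etfa over Etfb stands above 1 in every library up to P13 and below 1 from P21.

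Between consecutive stages the calls depended more on how libraries were scaled to each other, and both scalings are given. As deposited, the median tested gene moved by -0.19 between P8 and P10, 0.15 between P10 and P13, 0.29 between P13 and P21 and -0.02 between P21 and P33, differences that median-of-ratios scaling takes out.

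At P10, 14 of the 35 genes were lower than at P8, where 9.14% of tested genes were lower, and 0 were higher, where 1.9% were. After median-of-ratios scaling 0 of the 35 were called in either direction (3.66% of all genes were higher and 0.948% lower), and their median was -0.09, beside -0.38 as deposited, so the calls of this step hold only for the FPKM as deposited. Acadm had 4.53, 3.11 and 4.47 FPKM at P10, against 6.33, 10.5 and 7.55 FPKM at P8, a difference of -0.85 ± 0.20 (SE), adjusted p = 0.0195, and -0.58 with an adjusted p of 0.126 after scaling. Etfa had 32.4, 36.1 and 36.4 FPKM at P10, against 59.9, 63.8 and 48.9 FPKM at P8, a difference of -0.70 ± 0.13 (SE), adjusted p = 0.00592, and -0.37 with an adjusted p of 0.166 after scaling. Neither gene's libraries overlapped, as was so, in either direction, for 20 of the 35 and 34% of tested genes. The other 12 genes called lower as deposited were Cpt2, Crat, Acadl, Acaa2, Eci1, Eci2, Etfdh, Hsd17b4, Decr2, Phyh, Amacr and Crot, spread over all roles but the thioesterase and the peroxisomal entry genes. Fibroblast and perichondrium markers summed to 3761 to 5203 FPKM at P10 and 2336 to 3421 FPKM at P8. Called higher were 2 of 6, Ly6a and Dpt. Most of the P10 sum was Col1a1 and Col1a2, at means of 2523 and 1935 FPKM, which were not called. The part of fibroblast and perichondrium cells in the step was not tested. Leaving out a library changed the count to 6 without P10 replicate 1, 4 without P10 replicate 2, 3 without P8 replicate 2 and 7 without P8 replicate 3, and it was 0 when only the P10 and P8 libraries were fitted.

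At P13, 21 of the 35 were higher than at P10, where 18.6% of tested genes were higher, and 0 were lower, where 4.03% were. The median of the 35 was 0.55, beside 0.15 for all genes. After scaling, 13 of those 21 were still called higher and 0 lower, beside 7.93% higher and 9.15% lower among all genes, with a median of 0.29 for the 35. The 13 were Slc25a20, Cpt2 and Crat of the shuttle, Acadvl and Acaa2, Decr1, the electron transfer genes Etfa, Etfb and Etfdh, and Scp2, Phyh, Amacr and Crot of the peroxisome. Etfa had 72.4, 93.8 and 95.03 FPKM at P13, against 32.4, 36.1 and 36.4 FPKM at P10, a difference of 1.28 ± 0.13 (SE), adjusted p = 1.32e-05, the largest of the 35, and 0.996 after scaling. Etfb had 66.7, 66.5 and 79.5 FPKM at P13, against 31.3, 34.1 and 34.5 FPKM at P10, a difference of 1.06 ± 0.17 (SE), adjusted p = 4.29e-04, and 0.78 after scaling. All P13 libraries lay above all P10 libraries for both subunits. Libraries of these stages did not overlap, in either direction, for 24 of the 35 and 41.2% of tested genes. Cpt2 had 6.56, 5.85 and 7.02 FPKM at P13, against 2.83, 2.49 and 3.03 FPKM at P10, and Slc25a20 4.26, 3.94 and 4.94 FPKM at P13, against 1.77, 2.04 and 2.000 FPKM at P10. They differed by 0.98 ± 0.14 (SE), adjusted p = 2.88e-04 for Cpt2, and 0.87 ± 0.12 (SE), adjusted p = 1.67e-04 for Slc25a20. The trifunctional subunits were not called, at 0.33 (95% interval 0.04 to 0.62) for Hadha and 0.17 (-0.09 to 0.44) for Hadhb. Fibroblast and perichondrium markers summed to 1098 to 1435 FPKM at P13 and 3761 to 5203 FPKM at P10, with 5 of 6 called lower, and their part was not tested.

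Set directly against P8, P13 had 4 genes higher, Slc25a20, Etfa, Etfb and Scp2, where 2.69% of tested genes were higher, and 0 lower, where 1.52% were. The median of the 35 was 0.17, beside -0.02 for all genes. Etfb had 66.7, 66.5 and 79.5 FPKM at P13, against 36.3, 43.5 and 41.9 FPKM at P8, a difference of 0.79 ± 0.17 (SE), adjusted p = 0.0125. Etfa had 72.4, 93.8 and 95.03 FPKM at P13, against 59.9, 63.8 and 48.9 FPKM at P8, a difference of 0.59 ± 0.13 (SE), adjusted p = 0.0193. Both subunits of the flavoprotein thus stood above their P8 level in every P13 library. Libraries of P13 and P8 did not overlap, in either direction, for 11 of the 35 and 21.8% of tested genes. After scaling, Decr1 and Amacr were called as well, and Scp2, at an adjusted p of 0.0499 as deposited, was not, with 0.0649. That left 5 of the 35 higher and 0 lower after scaling, beside 3.63% higher and 1.97% lower among all genes. The count was 2 without P13 replicate 2, 0 without P13 replicate 3, 1 without P8 replicate 1 and 1 without P8 replicate 3, and it was 1 when only the P13 and P8 libraries were fitted.

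At P21, 25 of the 35 were higher than at P13 in the FPKM as deposited, where 36% of tested genes were higher, and 0 were lower, where 7.04% were. The median was 0.55, beside 0.29 for all genes. After scaling, 11 were higher (16.4% of all genes) and 4 were lower (15.6% of all genes), all 11 among the 25, and the median of the 35 was 0.20. The 11 were Slc25a20, Acads, Echs1, Eci1, Eci2, Decr1, Pex11a, Ehhadh, Acaa1a, Scp2 and Crot. Eci2 had 52.4, 54.3 and 50.9 FPKM at P21, against 16.4, 23.5 and 23.7 FPKM at P13, a difference of 1.29 ± 0.12 (SE), adjusted p = 1.08e-06, and 0.86 after scaling. Echs1 had 44.9, 46.8 and 42.9 FPKM at P21, against 20.1, 20.6 and 18.2 FPKM at P13, a difference of 1.15 ± 0.13 (SE), adjusted p = 4.86e-06, and 0.73 after scaling. Every P21 library exceeded every P13 library for both. Of the genes for unsaturated chains, Eci1, Eci2 and Decr1 were higher under both scalings, and the peroxisomal Decr2 only as deposited. Pex11a had 7.27, 5.78 and 5.16 FPKM at P21, against 1.43, 2.79 and 1.88 FPKM at P13, a difference of 1.23 ± 0.23 (SE), adjusted p = 7.54e-04, and 0.90 after scaling. Scp2 had 238, 289 and 294 FPKM at P21, against 118, 129 and 129 FPKM at P13, a difference of 1.12 ± 0.17 (SE), adjusted p = 1.16e-04, and 0.68 after scaling. Ehhadh, at or below 1.07 FPKM in all libraries up to P13, had 3.42, 2.61 and 1.70 FPKM at P21, a difference of 0.89, and 0.63 after scaling. The libraries of these 3 genes did not overlap either. The same held, in either direction, for 26 of the 35 and for 52.7% of tested genes.

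The 4 genes called lower after scaling were Hadh, Acat1, Etfa and Amacr, none of which was called as deposited. Etfa had 81.00, 77.7 and 66.3 FPKM at P21, against 72.4, 93.8 and 95.03 FPKM at P13, overlapping values that differed by -0.21 as deposited and -0.64 after scaling. Its partner Etfb had 97.5, 136 and 157 FPKM at P21, against 66.7, 66.5 and 79.5 FPKM at P13, a difference of 0.85 ± 0.17 (SE), adjusted p = 9.45e-04. The ratio of Etfa to Etfb within a library, which no scaling alters, was 0.831, 0.573 and 0.422 at P21, against 1.09, 1.41 and 1.196 at P13, with Etfa the higher subunit at P13 and Etfb at P21. It was 1.17 to 1.65 at P8, 1.04 to 1.06 at P10, 0.448 to 0.805 at P33 and 0.377 to 0.412 in adipocytes. The ratio of Acat1 to Acaa2 was likewise lower from P21 on, at 1.32 ± 0.0285 at P8, 1.54 ± 0.136 at P10, 1.06 ± 0.0469 at P13, 0.604 ± 0.122 at P21 and 0.520 ± 0.0479 at P33 (SD, n = 3 each).

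P13 and P21 cells differ in age and in isolation, by sorting at P13 and by flotation at P21, and these cannot be told apart here. Summed FPKM of 9 skeletal muscle markers was 296, 78.2 and 527 at P21, against 36.8, 24.6 and 28.4 at P13, with 7 of 7 tested called higher, while Myh4 and Myod1 were at or below 0.50 FPKM in these libraries. Erythroid markers (5 genes, 4 called higher) summed to 84.3 to 451 FPKM at P21 and 4.74 to 7.86 FPKM at P13, and brown or beige fat markers (6 genes, 4 called higher) to 152 to 230 FPKM at P21 and 17.6 to 20.9 FPKM at P13, with Ucp1 at 0. Most of the brown or beige sum at P21 was Cidea and Cox8b, at means of 122 and 77.2 FPKM. Adipocyte markers (7 genes, 6 called higher) summed to 16.2 to 23.7 FPKM at P21 and 1.96 to 2.36 FPKM at P13, with Lep listed at 0. Most of their P21 sum was Fabp4, at a mean of 16.4 FPKM, while Adipoq, Cidec, Plin1 and Retn averaged below 1 FPKM. Fibroblast and perichondrium markers (6 genes, 3 higher and 1 lower) summed to 4321 to 8586 FPKM at P21 and 1098 to 1435 FPKM at P13. Most of the P21 sum was Col1a1 and Col1a2, at means of 3171 and 3237 FPKM. Of this list Dpt was the lower one, and Col14a1 and Pdgfra were not called. Macrophage markers (6 genes, 3 higher) summed to 9.83 to 15.7 FPKM at P21 and 2.17 to 2.50 FPKM at P13, and of 6 tested chondrocyte markers 2 were higher and 1 lower. The part of these cells in the step was not tested.

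At P33, 10 of the 35 were lower than at P21, where 7.17% of tested genes were lower, and 0 were higher, where 2.87% were. The median was -0.29, beside -0.02 for all genes. After scaling, 9 of the 10 were also called lower, where Acaa2 was not, beside 5.87% lower and 3.19% higher among all genes. The 10 were Acadl, Echs1, Acaa2, Acat1, Eci2, Decr1, Etfa, Etfb, Phyh and Amacr. Echs1 had 20.9, 27.4 and 20.4 FPKM at P33, against 44.9, 46.8 and 42.9 FPKM at P21, a difference of -0.95 ± 0.13 (SE), adjusted p = 1.84e-04, and -0.89 after scaling. Etfb had 61.6, 64.6 and 90.3 FPKM at P33, against 97.5, 136 and 157 FPKM at P21, a difference of -0.84 ± 0.17 (SE), adjusted p = 0.00466. Acat1 had 13.1, 13.8 and 17.2 FPKM at P33, against 24.4, 23.4 and 23.9 FPKM at P21, a difference of -0.67 ± 0.11 (SE), adjusted p = 0.00152. None of the P33 libraries reached the lowest P21 library for these 3 genes. Libraries of the 2 stages did not overlap, in either direction, for 13 of the 35 and 22.2% of tested genes. Slc25a20 and Eci1, both higher at P21 than at P13, were not called at this step, at -0.08 (95% interval -0.34 to 0.17) and -0.13 (-0.37 to 0.11). Pex11a, with 6.62, 8.10 and 7.24 FPKM at P33 and 7.27, 5.78 and 5.16 FPKM at P21, differed by 0.24 (-0.26 to 0.74) and was not called. Muscle markers summed to 26.3 to 204 FPKM at P33 and 78.2 to 527 FPKM at P21, with 1 of 7 tested called lower, and adipocyte markers to 6.38 to 7.58 FPKM at P33 and 16.2 to 23.7 FPKM at P21, with 4 of 7 called lower. Brown or beige fat markers summed to 95.8 to 103 FPKM at P33 and 152 to 230 FPKM at P21 (2 of 6 called lower), and macrophage markers to 17.95 to 36.52 FPKM at P33 and 9.83 to 15.7 FPKM at P21 (3 of 6 called higher). Of the chondrocyte markers 3 of 6 tested were lower, among them Col2a1, with 189 to 245 FPKM at P33 and 850.1 to 1003 FPKM at P21. The part of these cells in the step was not tested. The count was 5 without P33 replicate 1, and 1 when only the P33 and P21 libraries were fitted.

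Over the 4 consecutive steps as deposited, 8 genes were lower at P10, higher at P13 and higher at P21 with no call at P33, namely Cpt2, Crat, Acadm, Eci1, Etfdh, Hsd17b4, Decr2 and Crot. Another 8 were called only at P21 and 6 at no step, Cpt1b, Acadsb, Hadha, Hadh, Acot2 and Abcd2. These patterns rest on the FPKM as deposited, and with median-of-ratios scaling none of the 35 was called at P10. The share of all tested genes with each pattern was not computed. The median tested gene as deposited also moved down at P10 (-0.19) and up at P13 (0.15) and P21 (0.29). Whether the patterns are particular to these genes was thus not tested. Hadha is one of the 6, with 21.5, 25.4 and 20.3 FPKM at P8, 17.1, 22.2 and 15.6 FPKM at P10, 20.6, 24.3 and 24.3 FPKM at P13, 27.9, 24.03 and 21.5 FPKM at P21 and 21.9, 26.6 and 26.5 FPKM at P33, with each group overlapping the next.

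**Figure D5:**
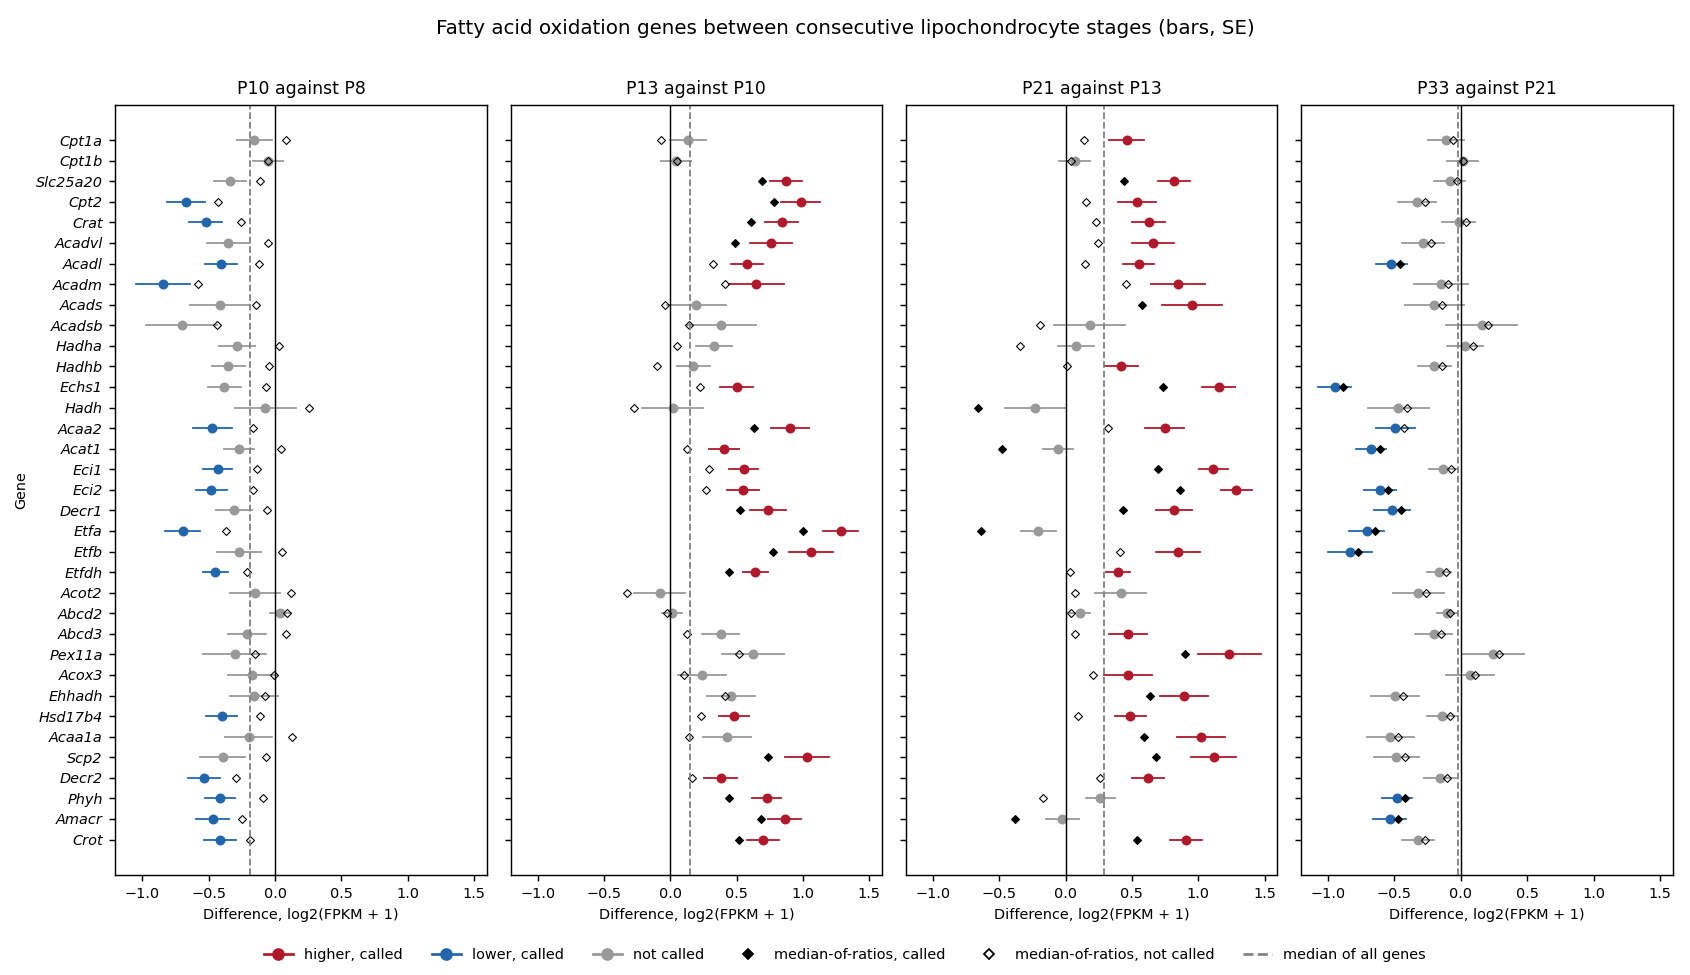
Difference in log2(FPKM + 1) between consecutive lipochondrocyte stages, later minus earlier, for each of the 35 genes. Circles with SE bars are the FPKM as deposited, red where called higher, blue where called lower and grey where not called, diamonds are values after median-of-ratios scaling, filled where called, and dashed lines mark the median of all tested genes. As deposited, 14 genes are lower at P10, 21 higher at P13, 25 higher at P21 and 10 lower at P33, and after scaling 0, 13, 11 and 9.

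Genes around the pathway, from lists of related function, gave mostly the same direction at P33 against adipocytes, with exceptions. Regulators were lower for 12 of 12 tested (11 after scaling), with a median of -1.83. Of these, Ppara, Ppargc1b, Prkaa2 and Pdk4 passed the filter through adipocytes only, so their lower calls were fixed by the filter. Acacb and Ppargc1a also averaged below 1 FPKM at every lipochondrocyte stage. Pdk4, the kinase that shuts glucose carbon out of mitochondria, averaged 0.213 ± 0.170 FPKM at P33 and 47.3 ± 4.06 FPKM in adipocytes, a difference of -5.32 ± 0.23 (SE), adjusted p = 1.62e-11. Pparg, the adipogenic nuclear receptor, averaged 8.34 ± 2.51 FPKM at P33 and 97.9 ± 3.05 FPKM in adipocytes, and Acaca, which makes malonyl-CoA, 2.97 ± 0.743 FPKM at P33 and 45.3 ± 3.41 FPKM in adipocytes (SD, n = 3 each). Among genes of acyl-CoA activation and carnitine supply, 5 of 9 tested were lower and 3 higher, namely Acsl3, Acsl6 and Acbd3. Acsl1, the main acyl-CoA synthetase of adipocytes, averaged 3.52 ± 0.540 FPKM at P33 and 613 ± 15.99 FPKM in adipocytes, a difference of -7.09 ± 0.14 (SE), adjusted p = 1.03e-15. Acsl6, another synthetase, averaged 2.78 ± 0.889 FPKM at P33 and 0.0133 ± 0.0231 FPKM in adipocytes, a difference of 1.87 ± 0.13 (SE), adjusted p = 6.26e-09, and was higher after scaling too. Acsl1 and Acsl6 thus differed in opposite directions, and which synthetase supplies oxidation in these cells was not tested.

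The list of other mitochondrial oxidation also holds relatives that act outside mitochondria, and of its 14 genes 10 were lower and 2 higher. Of 10 propionate and ketone genes 9 were lower and 1 higher, and the counts of both lists were the same after scaling. Acot1, Cpt1c and Bdh1 were the higher ones, with differences of 2.07, 1.77 and 1.79, and reads of Acot1 may have been split with Acot2. Bdh1, which interconverts the ketone bodies, averaged 2.73 ± 0.798 FPKM at P33 and 0.0633 ± 0.0651 FPKM in adipocytes, and Cpt1c, a brain-enriched CPT1 relative of the endoplasmic reticulum, 4.41 ± 0.626 FPKM at P33 and 0.577 ± 0.0833 FPKM in adipocytes (SD, n = 3 each). Acss2, the cytosolic acetyl-CoA synthetase, was lower at P33, at 6.87 ± 1.72 FPKM against 120.2 ± 3.33 FPKM in adipocytes. Other peroxisomal genes were lower for 12 of 16 tested and higher for 1, Acox2 (2 after scaling), and peroxisome biogenesis genes were lower for 12 of 14 (10 after scaling) and higher for 0. Cat, the peroxisomal catalase, averaged 20.97 ± 3.38 FPKM at P33 and 413 ± 13.5 FPKM in adipocytes, a difference of -4.25 ± 0.13 (SE), adjusted p = 1.66e-13. Pex16, which brings membrane proteins to peroxisomes, averaged 10.6 ± 2.07 FPKM at P33 and 137 ± 8.53 FPKM in adipocytes, a difference of -3.59 ± 0.17 (SE), adjusted p = 4.46e-11. Respiratory chain and citrate cycle genes were lower for 20 of 22 (18 after scaling), with a median of -2.18, and Cs, citrate synthase, averaged 11.1 ± 0.802 FPKM at P33 and 173 ± 8.27 FPKM in adipocytes. The lower level at P33 thus covered mitochondrial genes outside beta-oxidation as well.

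Between P21 and P13, the largest change on these pathway lists was in Pxmp2, a channel protein of the peroxisomal membrane. It averaged 52.2 ± 8.10 FPKM at P21 and 0.350 ± 0.0361 FPKM at P13, a difference of 5.29 ± 0.12 (SE), adjusted p = 4.68e-13, and 17.4 ± 0.816 FPKM at P33. Nudt7, a peroxisomal CoA hydrolase, averaged 12.6 ± 3.09 FPKM at P21 and 2.54 ± 0.476 FPKM at P13, a difference of 1.93 ± 0.18 (SE), adjusted p = 1.16e-06. Both were higher after scaling as well. Acss2, with the largest change after Pxmp2, averaged 28.3 FPKM at P21 and 4.88 FPKM at P13, a difference of 2.29 ± 0.17 (SE), adjusted p = 9.76e-08. Acat2, the cytosolic acetoacetyl-CoA thiolase, averaged 87.4 ± 15.5 FPKM at P21 and 31.6 ± 3.04 FPKM at P13, and Bdh1 was lower at P33 than at P21, with a difference of -1.86 ± 0.22 (SE), adjusted p = 6.28e-05. Respiratory chain and citrate cycle genes between these stages had 9 of 22 higher and 1 lower as deposited, and 0 higher and 7 lower after scaling, so no direction can be given for them.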

How the data were processed

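RNA sequencing was analysed from 18 mouse libraries, 15 of ear-cartilage lipochondrocytes and 3 of inguinal adipocytes. Alignment to mm10 was done by STAR 2.4.2a, per the submitters' processing notes. How FPKM were computed, on which annotation and with which strand setting, is not given in the sources used here. The authors deposited FPKM per gene and library, with 2 decimals and no gene counts, so no counting intervals are given. A further deposited table holds the read count of each library and its alignment rate in percent, per the file headers.

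FPKM were used as deposited. The 13815 genes that reached 1 FPKM in 3 or more libraries were kept, and limma 3.58.1 in R 4.3.3 was fitted with a mean-variance trend on log2(FPKM + 1), a scale that understates the change of low genes. The fit had 6 group means, and 6 comparisons were tested, two-sided, with Benjamini-Hochberg adjustment over all tested genes. The alternatives were median-of-ratios scaling, a pseudocount of 0.1, no filter, a fit of only the 2 groups compared, the replicate number as a block and leaving out each library. Rescaling FPKM to nuclear-encoded genes was added after the data were seen. The scripts were tested on simulated data.

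Genes named were all 35 and, of each related list, up to 3 called genes per comparison with the largest change in either direction. The members and lists were chosen with earlier results of these data known. Gene IDs matched GENCODE M21 for 46488 of 46983 genes, and this annotation (GRCm38) gave the coordinates.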

Additional observations from a re-analysis of the deposited data

How the results depend on the processing

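Against adipocytes, all 35 genes stayed lower at P33 under each alternative run. Median-of-ratios scaling changed the stage steps most: 0 genes were lower at P10 than at P8, 13 were higher at P13 than at P10, and at P21 11 were higher and 4 lower than at P13, with the cause not tested. It also moved the all-gene calls, to 4340 higher and 4708 lower for P33 against adipocytes (3315 and 6151 as deposited) and to 2263 higher and 2155 lower for P21 against P13 (4977 and 972 as deposited). Rescaling to nuclear-encoded genes, added after the data were seen, gave 17 higher and 1 lower at P21. With only the 2 groups compared in the fit, fewer samples set the spread: 0 genes were lower at P10 than at P8, 1 was higher at P13 than at P8 and 1 was lower at P33 than at P21. Leaving out each library gave 35 genes lower at P33 than in adipocytes each time, 3 to 15 lower at P10 than at P8, 18 to 21 higher at P13 than at P10, 0 to 5 higher at P13 than at P8, 23 to 25 higher at P21 than at P13 and 5 to 11 lower at P33 than at P21. Libraries with the same number did not deviate together in every pair (correlations of -0.168 to 0.206 over the 6 comparisons), and the main fit used no block. Whether same-numbered libraries shared a preparation is not known, and these correlations cannot decide it. With the replicate block the counts were 35, 16, 21, 3, 25 and 11 in the same order. A pseudocount of 0.1 or no filter moved no count by over 1.5 times. No gene's called difference changed sign under any alternative. FPKM carry no counts, so the depth behind single low values such as Cpt1b and Abcd2 in lipochondrocytes is unknown.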
